A study of Homo sapiens with 12 samples.

Results

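The genes described here are 9 feedback inhibitors of MAP kinase signalling: the dual-specificity phosphatases DUSP1, DUSP4, DUSP5, DUSP6 and DUSP10, the Sprouty genes SPRY2 and SPRY4, and the Spred genes SPRED1 and SPRED2. They were found by gene symbol among the 28256 symbols of the deposited table, each by its transcript with the highest total count, and all 9 were among the 13166 genes with enough counts to be tested. RNA was sequenced from HepG2, an established human hepatoma line, in 12 libraries, 3 in each of 4 groups. All cells spent 24 h in medium with charcoal-stripped serum, which lowers steroid hormones, before 24 h of treatment. The DMSO group received 0.1% vehicle, the Dex group 50 nM dexamethasone (a synthetic glucocorticoid), the KLA group KLA (a name the labels do not spell out, in common use for Kdo2-lipid A, the part of bacterial endotoxin that activates TLR4) at a labelled dose of 100 ng/µl, and the DexKLA group both agents at those doses. The labels name wild-type cells of this 1 line, give DMSO for the vehicle group alone, and leave unsaid whether replicates came from separate cultures. The p-values below therefore rest on library-to-library spread alone, part or all of which may be technical.

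Growth factor receptors pass their signal through RAS, RAF and MEK to the kinase ERK. ERK in turn switches on genes whose products shut the cascade down. The DUSP proteins remove phosphate from activated MAP kinases: DUSP6 acts on ERK in the cytoplasm, DUSP5 on ERK in the nucleus, DUSP4 and DUSP1 are nuclear enzymes of broader range, and DUSP10 acts mainly on p38 and JNK. Sprouty and Spred proteins work higher up, between the receptor, RAS and RAF. In many cell types DUSP1 is also a direct target of the glucocorticoid receptor, and DUSP6 and SPRY4 are common readouts of ERK activity.

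The libraries differed in depth, with total gene counts of 3317740 to 5277463 in the DMSO group, 3642685 to 17782057 in the Dex group, 15998657 to 20933501 in the KLA group and 4514606 to 11484497 in the DexKLA group. Every KLA library was deeper than every DMSO library, so KLA and depth cannot be told apart in KLA versus DMSO. Log2 changes also ran with transcript length across genes (Spearman rho −0.45 for Dex versus DMSO, 0.49 for DexKLA versus KLA and −0.47 for KLA versus DMSO; genes are not independent replicates). KLA replicate 3 and DexKLA replicate 3 stood furthest from the other libraries of their groups, by a chi-square over genes that came to 24.6 and 25.8 (KLA) and 19.5 and 10.5 (DexKLA) per degree of freedom, beside 1.87 to 6.32 for the other 8 pairs of replicates. For the same relative difference this chi-square grows with depth, so its values are not comparable between groups of unlike depth. Within the shallow DMSO group the pairs with replicate 1 had 4.37 and 4.61, beside 1.87 for replicates 2 and 3. The libraries were also split into 6 deeper and 6 shallower ones, called depth classes below. All 8 hepatocyte and hepatoma markers were above 1 CPM (counts scaled to the library total) in every library. Their summed level was 86800 to 105000 CPM in the DMSO libraries and 115000 to 155000 CPM in the other 9. ALB and AFP made up most of that sum, and both averaged lowest with DMSO (ALB 66400 CPM, beside 82200 to 91100 CPM in other groups). APOA1 also averaged lowest with DMSO, while APOB, HNF4A and FGB averaged highest there, at 6050, 239 and 1350 CPM. TTR and SERPINA1 had DMSO means between those of other groups. Of markers of other cell types, 1 of 6 fibroblast, 2 of 6 macrophage and leukocyte, 1 of 5 endothelial and 3 of 4 cholangiocyte genes were at 1 CPM or more in every library. Their summed levels ran over all 4 groups from 21.2 to 30.9, 3750 to 4880, 3.02 to 5.54 and 351 to 461 CPM. Among them LYZ averaged 4030 to 4640 CPM by group, EPCAM 172 to 209 CPM and KRT19 105 to 138 CPM. SOX9 averaged 70.8 to 82.4 CPM, CD68 46.8 to 52.6 CPM, PDGFRB 22.5 to 27.8 CPM and PECAM1 2.67 to 3.47 CPM. Other genes of the same lists were near 0. COL1A2, THY1, CD163, KDR and TEK were listed at 0 in every library, PTPRC at no more than 0.0641 CPM and KRT7 at no more than 0.447 CPM.

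The promoters of DUSP6 and DUSP1 are printed first, because they belong to the member that changed most and to the member best known as a glucocorticoid target. Each run is the 250 bases upstream of the gene's start on the gene's own strand, 5′ to 3′, from RefSeq on GRCh38.p14. Capitals mark TGACG, the short cyclic AMP response site, on either strand.
DUSP6 (minus strand, chr12:89352502-89352751): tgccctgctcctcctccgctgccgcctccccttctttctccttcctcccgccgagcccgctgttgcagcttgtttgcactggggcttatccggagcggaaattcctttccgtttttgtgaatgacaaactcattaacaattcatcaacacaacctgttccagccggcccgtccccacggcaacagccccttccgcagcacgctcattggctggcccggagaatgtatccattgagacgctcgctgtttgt
DUSP1 (minus strand, chr5:172771196-172771445): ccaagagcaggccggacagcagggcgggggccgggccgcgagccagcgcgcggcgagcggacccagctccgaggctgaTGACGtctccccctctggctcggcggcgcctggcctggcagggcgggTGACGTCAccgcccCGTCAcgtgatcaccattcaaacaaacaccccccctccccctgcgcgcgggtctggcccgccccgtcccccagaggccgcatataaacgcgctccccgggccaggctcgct
The DUSP6 run held none of the 6 motifs searched on both strands, and its GC content was 57.2%. It is upstream of the RefSeq start only. In the GENCODE v29 model of NM_001946 it lies inside the first exon (chr12:89351640-89353271), and bases upstream of that model's start were not searched. The DUSP1 run held 4 TGACG matches, of which 2 overlap within its 1 palindrome TGACGTCA and 2 lie apart from it, and its GC content was 74.4%. Among 35116 promoter windows of the same length, 21.2% held TGACG and 1.65% held TGACGTCA. RefSeq windows were matched for 7 of the 9 genes, all but DUSP4 and DUSP5. TGACG was found in 3 of those 7 (DUSP1, SPRY2 and SPRY4). The SPRY4 window, set by the RefSeq gene start, lies inside the span of the longer transcript counted here and is not upstream of its start. CCGGAA, a longer form of the ETS core GGAA, was found in SPRY2 alone of the 7 and in 14.5% of all windows. GGAA itself was not among the motifs searched, and its letters occur in the printed DUSP6 run. Neither the glucocorticoid palindrome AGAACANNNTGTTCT (0.00285% of windows) nor its short site AGAACA (12.4%) nor the AP-1 site TGANTCA (6.57%) was found in any of the 7. These are matches of letters in a short window and are not binding sites.

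Per kilobase of transcript, DUSP6 was the most abundant of the 9 in every group, at a mean of 33.6 ± 4.4 CPM per kb (SD, n = 3) in DMSO-treated cells. DUSP1 and SPRED2 followed at 14.2 ± 2.35 and 14.1 ± 0.856 CPM per kb, and their libraries overlapped in all 4 groups. Next came SPRY4 (4.89 ± 0.48), SPRY2 (3.68 ± 0.825), SPRED1 (2.83 ± 0.413) and DUSP5 (2.15 ± 0.462 CPM per kb), each overlapping its neighbour in the DMSO libraries. DUSP10 (0.827 ± 0.296) and DUSP4 (0.181 ± 0.107 CPM per kb) were lowest and separate from each other. The order of the 9 group means was the same in all 4 groups. By CPM over the 12 libraries, DUSP6 stood at percentile 94.7 of the tested genes, SPRED2 at 72.6, DUSP1 at 52.1, DUSP10 at 5.95 and DUSP4 at 3.11.

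**Figure D1:**
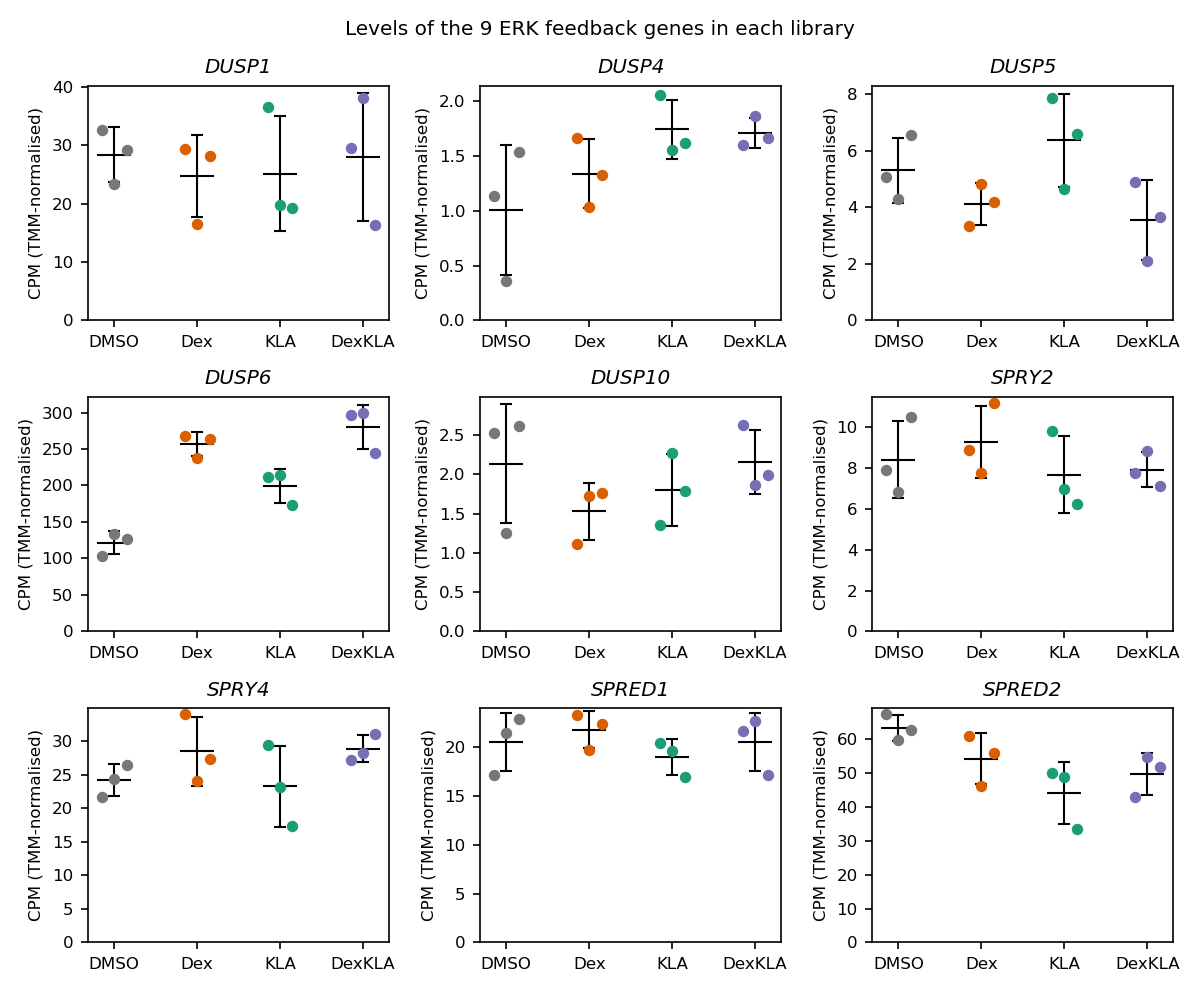
Level of each of the 9 genes (vertical axis, CPM) in the 12 libraries by treatment group (horizontal axis), with 1 point per library and bars for the group mean and SD. The 3 DMSO points of DUSP6 lie between 104 and 134 CPM, below all 9 libraries of the other groups, while most other genes have groups that overlap.

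DUSP6 was the 1 gene of the 9 that rose with Dex. Its level was 104, 134 and 127 CPM in the DMSO libraries (replicates 1, 2 and 3) and 268, 238 and 264 CPM in the Dex libraries. The KLA libraries had 211, 214 and 173 CPM, and the DexKLA libraries 297, 299 and 245 CPM. Every treated library was above every DMSO library, and the KLA libraries lay between the DMSO libraries and those with Dex. DUSP6 counts ran from 368 to 4433 per library, so counting error was small beside the spread between libraries.

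In cells without KLA, Dex raised DUSP6 by 1.07 ± 0.12 on the log2 scale (SE; 95% interval 0.82 to 1.33), a fold of 2.1 (1.77 to 2.51; edgeR quasi-likelihood test, Benjamini-Hochberg adjusted p = 3.74e-05). With other scalings, with the length trend removed, within the 5 shallower libraries of the comparison alone, and without any 1 library, the change stayed between 0.97 and 1.15 and passed the test each time. In cells treated with KLA, all 3 DexKLA libraries were above all 3 KLA libraries. That difference of 0.49 ± 0.12 (0.25 to 0.73) had an adjusted p of 0.0562 and did not pass the edgeR threshold of 0.05. It depended on single libraries: it was 0.58 (adjusted p = 0.0244) without DexKLA replicate 3, 0.4 (adjusted p = 0.174) without KLA replicate 3 and 0.49 (adjusted p = 0.0421) without DMSO replicate 1, which enters only through the shared spread. DESeq2 gave 0.49 with an adjusted p of 0.013. Averaged over cells without and with KLA, the Dex effect was 0.78 ± 0.08 (0.61 to 0.96), a fold of 1.72 (1.53 to 1.95; adjusted p = 4.75e-06).

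DUSP6 was also higher with KLA than with DMSO, by 0.71 ± 0.12 (0.46 to 0.96; fold 1.64, 1.38 to 1.95; adjusted p = 0.00675). That call was lost without DMSO replicate 1 (0.61, adjusted p = 0.0724) and with depth class as a covariate (0.87, adjusted p = 0.0905). With both agents DUSP6 was 1.2 ± 0.12 above DMSO (0.95 to 1.45; fold 2.3, 1.93 to 2.73; adjusted p = 4.8e-06). Adding KLA to Dex gave 0.13 ± 0.12 (−0.11 to 0.37; adjusted p = 0.817). The comparisons of Dex, KLA and DexKLA with DMSO share the same 3 DMSO libraries. The interaction, the Dex effect with KLA minus the Dex effect without it, was −0.58 ± 0.17 (−0.93 to −0.24) with an adjusted p of 0.0683 in edgeR and −0.59 with 0.0267 in DESeq2. Whether the Dex effect on DUSP6 differed with KLA therefore depended on the test used. In bulk RNA, more cells expressing a gene and more RNA per cell cannot be told apart. The summed hepatocyte and hepatoma markers, mostly ALB and AFP, were lowest in the same 3 DMSO libraries, though APOB, HNF4A and FGB averaged highest there. The part of these markers in the DUSP6 difference was not tested.

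**Figure D2:**
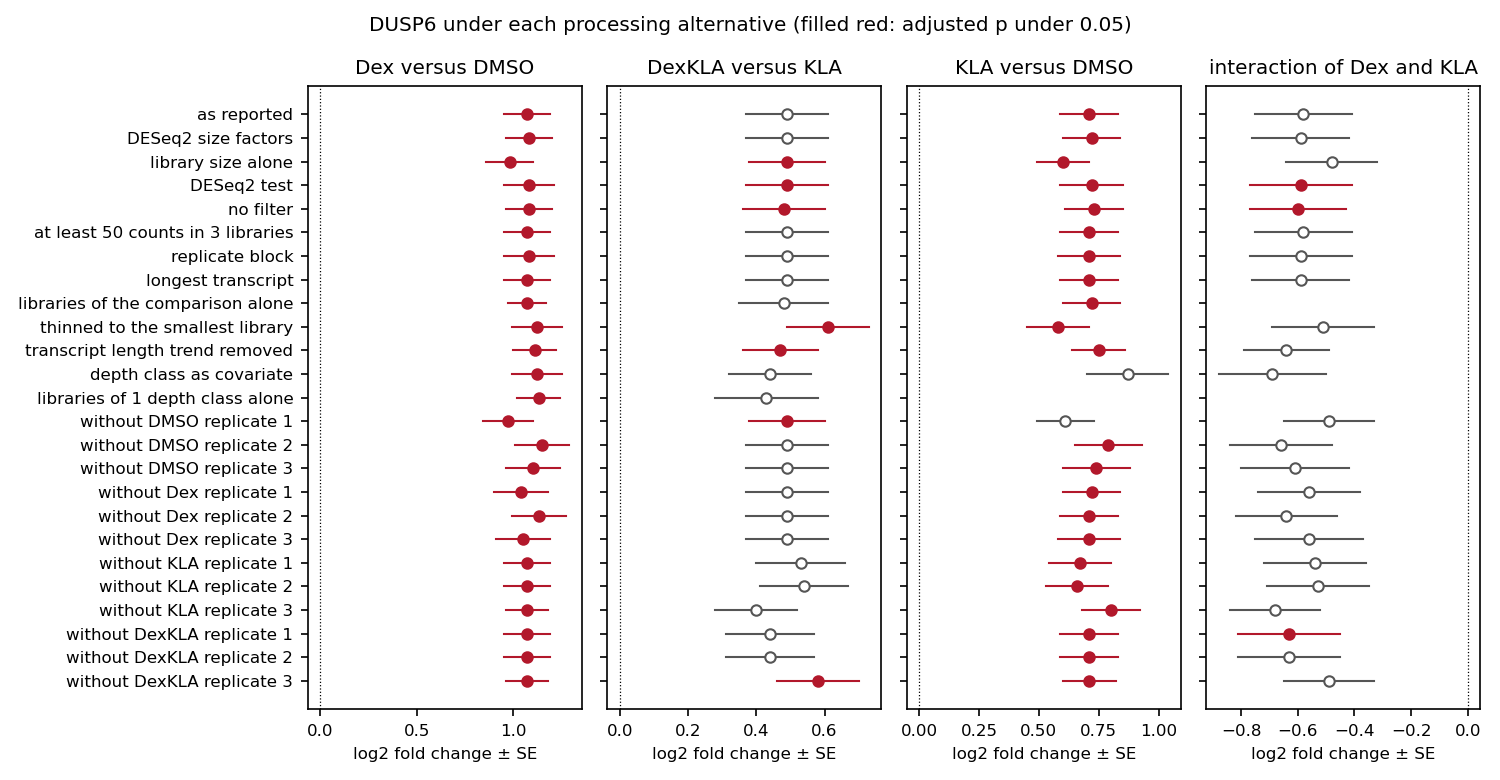
Log2 change of DUSP6 with its SE (horizontal axis) under each alternative and with each library left out (rows), in 4 comparisons. Filled red points have an adjusted p under 0.05: Dex versus DMSO stays between 0.97 and 1.15 and is filled throughout, while DexKLA versus KLA lies between 0.4 and 0.61 and is filled in some rows.

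DUSP6 lies on chromosome 12 (hg38 chr12:89347237-89352501, minus strand, transcript NM_001946, 3620 bases). The table also lists NM_022652, which is 437 bases shorter. In GENCODE v29 it lacks the 438 bases of exon 2 (chr12:89350588-89351025), a coding exon between the first and the last. Its GENCODE first and last exons are also shorter, at 766 and 1193 bases against 1632 and 2330 in NM_001946. Those models therefore differ by more than the 437 bases of the transcripts counted here. Counts of the shorter transcript averaged 94.5 ± 10.7, 207 ± 11.1, 160 ± 13.2 and 226 ± 23.4 CPM (SD, n = 3) in the DMSO, Dex, KLA and DexKLA groups. Both transcripts thus had the same order of group means. The counts listed for the long transcript beyond those of the short one were 20.4%, 23.7% and 21.9% of the long count in the DMSO libraries and 16.5% (95% exact binomial interval 15.2 to 17.9) to 21.3% (19.9 to 22.7) in the other 9. The 437 bases make up 12.1% of the long transcript as counted, and counts listed for the long transcript alone were present in every library. The lowest DMSO share lay within the range of the other 9 libraries, and the intervals cover counting error only. RefSeq also has a read-through gene, POC1B-DUSP6, and GENCODE an antisense gene, AC024909.2, over this locus. The sources used here do not give the strand of the libraries, so reads of AC024909.2 cannot be told from those of DUSP6. POC1B is on the minus strand, as DUSP6 is, so strand would not separate read-through reads either. POC1B itself had 50 to 370 counts per library.

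DUSP1, at chr5:172768096-172771195, showed no difference between groups beyond its spread. Its levels were 32.7, 23.3 and 29.2 CPM with DMSO, 29.4, 16.6 and 28.2 CPM with Dex, 36.5, 19.7 and 19.2 CPM with KLA, and 29.6, 38.1 and 16.4 CPM with DexKLA. All 4 groups overlapped, and the replicates of each group were spread widely. The Dex difference for DUSP1 was −0.26 ± 0.29 (−0.86 to 0.33; adjusted p = 0.648) without KLA and 0.11 ± 0.26 (−0.42 to 0.64; adjusted p = 0.907) with it. Averaged over both, the estimate was −0.08 ± 0.19. These intervals leave out a doubling of DUSP1 at 24 h and hold smaller changes either way. The antisense gene AC022217.3 overlaps DUSP1.

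DUSP5 (chr10:110497907-110511531) was low, at 9 to 123 counts per library. It was 7.88, 4.64 and 6.59 CPM with KLA and 4.91, 2.09 and 3.66 CPM with DexKLA. The highest DexKLA library was above the lowest KLA library. The difference was −0.75 ± 0.25 (−1.27 to −0.23; unadjusted p = 0.00684, adjusted p = 0.283), and without KLA it was −0.28 ± 0.30 (adjusted p = 0.641). Its mean Dex effect of −0.51 ± 0.2 (−0.92 to −0.11; adjusted p = 0.346) did not pass either.

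DUSP4 (chr8:29333064-29350684) had 2 to 32 counts per library and DUSP10 (chr1:221701424-221742089) 4 to 47. DUSP4 was 1.13, 0.359 and 1.53 CPM with DMSO and 2.05, 1.55 and 1.62 CPM with KLA, without overlap. The difference of 0.85 ± 0.42 (−0.02 to 1.71) had an adjusted p of 0.167. DUSP10 stayed between group means of 1.53 ± 0.365 CPM (Dex) and 2.16 ± 0.411 CPM (DexKLA). At these counts the 95% intervals for the Dex effect without KLA ran from −0.67 to 1.33 for DUSP4 and from −1.15 to 0.46 for DUSP10. For DexKLA versus KLA they were narrower, −0.68 to 0.6 and −0.35 to 0.87.

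The Sprouty genes kept close levels. SPRY2 (chr13:80335977-80341126) had group means of 8.39 ± 1.88, 9.28 ± 1.77, 7.67 ± 1.88 and 7.91 ± 0.848 CPM in the DMSO, Dex, KLA and DexKLA groups. Its Dex effect was 0.1 ± 0.23 (−0.39 to 0.59) without KLA and 0.03 ± 0.2 with it. SPRY4 (chr5:142310435-142325021) had group means of 24.2 ± 2.37, 28.4 ± 5.17, 23.3 ± 6.03 and 28.9 ± 2 CPM in the same order. Both means with Dex were above both means without it, but the libraries overlapped in each comparison of Dex. Its mean Dex effect was 0.26 ± 0.12 (0.01 to 0.51; unadjusted p = 0.0457, adjusted p = 0.55), and 0.17 without KLA replicate 3. The non-coding gene SPRY4-IT1 lies within SPRY4 and had 0 to 5 counts per library.

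SPRED2 (chr2:65310851-65432599) was the 1 gene of the 9 that fell with KLA. It was 67.6, 59.9 and 62.9 CPM with DMSO, 61, 46.2 and 55.9 CPM with Dex, 50, 48.8 and 33.5 CPM with KLA, and 42.9, 54.8 and 52 CPM with DexKLA. The KLA and DexKLA libraries were all below the DMSO libraries, and KLA replicate 3 was the lowest of the 12. KLA versus DMSO gave −0.52 ± 0.14 (−0.82 to −0.22; fold 0.697, 0.566 to 0.859; adjusted p = 0.0237). The call was lost without KLA replicate 3 (−0.36, adjusted p = 0.0892), without DMSO replicate 1 (−0.48, 0.106) or without DMSO replicate 3 (−0.53, 0.0586). With depth class as a covariate the value was −0.25 (adjusted p = 0.55). DexKLA versus DMSO was −0.35 ± 0.15 (adjusted p = 0.174). SPRED2 did not pass for Dex without KLA (−0.24 ± 0.15, adjusted p = 0.368) or with it (0.17 ± 0.14, adjusted p = 0.683). Its relative SPRED1 (chr15:38252836-38357249) had group means of 19 ± 1.88 to 21.8 ± 1.86 CPM, and a Dex effect without KLA of 0.05 ± 0.16 (−0.28 to 0.38), a narrow interval around 0.

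**Figure D3:**
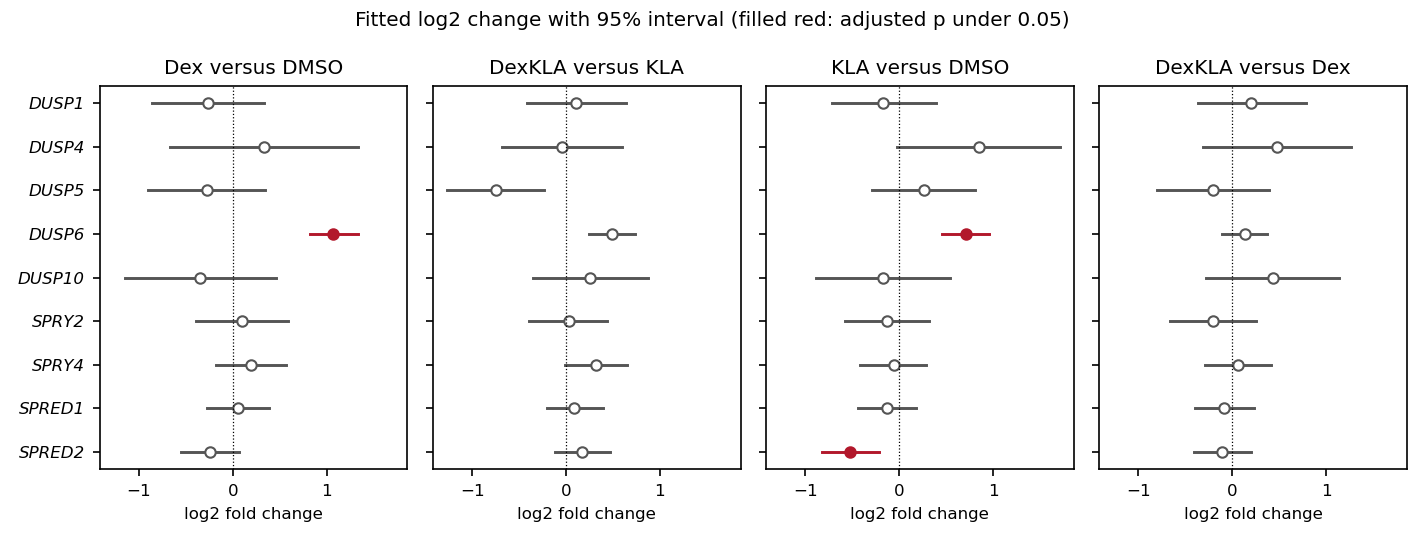
Fitted log2 fold change (horizontal axis) of each gene with its 95% interval, in 4 comparisons. Filled red points passed the edgeR test at an adjusted p under 0.05: DUSP6 at 1.07 for Dex versus DMSO, and DUSP6 at 0.71 and SPRED2 at −0.52 for KLA versus DMSO.

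Counted together, 1 of the 9 genes passed the test for Dex versus DMSO, where 2.05% of all 13166 genes did (1.22% upward, as DUSP6). For the mean Dex effect it was again 1 of 9, beside 1.51% of all genes. In DexKLA versus KLA 0 of 9 passed in edgeR (2 had an unadjusted p under 0.05, and DESeq2 called 1), beside 0.653% of all genes. KLA versus DMSO called 2 of 9, 1 in each direction, beside 13.7% of all genes (7.78% higher, 5.94% lower). DexKLA versus DMSO called 1 of 9, which was higher, beside 4.22% (2.84% higher). In DexKLA versus Dex 0 of 9 passed in edgeR, 0 had an unadjusted p under 0.05 and DESeq2 called 0, and the edgeR share of all genes was 0%. The interaction called 0 of 9 in edgeR (1 with an unadjusted p under 0.05, 1 in DESeq2), beside 0.038% of all genes. Groups did not overlap for 1 of the 9 genes in Dex versus DMSO, beside 28% of all genes, and for 1 in DexKLA versus KLA, beside 15.3%. They did not overlap for 3 in KLA versus DMSO (36.2% of all genes), 4 in DexKLA versus DMSO (26.2%) and 1 in DexKLA versus Dex (12.7%). The direction of calls over all genes depended on the scaling: 59.3% of those in Dex versus DMSO, 57.8% for the mean Dex effect, 56.7% in KLA versus DMSO and 67.3% in DexKLA versus DMSO were higher with TMM, and 26.3%, 45.7%, 23.7% and 27.7% with library size alone. The directions of the called changes in DUSP6 and SPRED2 were the same under both. The median log2 change of the 9 with Dex was 0.05 without KLA, beside −0.011 over all genes, and 0.11 with KLA, beside 0.003. The 28 pairwise correlations of log2 CPM among the other 8 genes over the 12 libraries ran from −0.421 to 0.646 with a median of 0.194, and within groups from −0.444 to 0.77 with a median of 0.33. DUSP1, SPRY2, SPRY4, SPRED1 and SPRED2, picked after these values were seen, were positive in all 10 of their pairs (0.333 to 0.646; within groups 0.316 to 0.77). The highest within-group value of all 36 pairs was 0.944, for DUSP6 with SPRED1. These correlations describe libraries that share depth and treatment.

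Per kilobase, DUSP6 made up most of the summed 5 DUSP genes in every library. Its share was 65.9 ± 6.63% in the DMSO group, 82.9 ± 2.33% with Dex, 77.6 ± 4.93% with KLA and 82.7 ± 3.29% with both agents (SD, n = 3). The sum of the other 8 genes was 42.8 ± 4.08, 39.7 ± 6.46, 36.6 ± 8.87 and 39.7 ± 5.85 CPM per kb in the same groups. Those sums overlapped between groups, unlike DUSP6 itself between the DMSO and treated libraries.

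Among the other phosphatases that act on MAP kinases, 4 of 5 were tested and none passed in any comparison in edgeR or DESeq2. For the mean Dex effect 1 of the 4 had an unadjusted p under 0.05. DUSP9, an ERK phosphatase like DUSP6, was far more abundant in CPM and averaged 1230 ± 130, 1270 ± 9.26, 1270 ± 76 and 1210 ± 99.5 CPM, with a mean Dex effect of −0.01 ± 0.08. DUSP2 was listed at 0 in every library. Of the 9 other dual-specificity phosphatases 8 were tested, and of the 3 other Sprouty and Spred genes 1 was, SPRY1. None of these passed in any comparison in either tool, with 0 at an unadjusted p under 0.05 for the mean Dex effect.

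Among other inhibitors between receptor and ERK, 14 of 16 were tested, and the mean Dex effect called 1 higher and 1 lower. ERRFI1, which binds and blocks the EGF receptor family, averaged 166 ± 11.6, 232 ± 27, 141 ± 29.6 and 245 ± 33.9 CPM in the DMSO, Dex, KLA and DexKLA groups. It rose by 0.64 ± 0.1 with Dex on average (adjusted p = 0.000301) and by 0.79 ± 0.13 in KLA-treated cells (adjusted p = 0.00263), and both calls held without each library. Within the deeper libraries alone the difference in KLA-treated cells was 0.67 (adjusted p = 0.355). LRIG1, which promotes loss of the same receptors, went the other way, from 28 ± 1.15 to 17.3 ± 2.06 CPM with Dex alone. Its mean Dex effect was −0.55 ± 0.12 (adjusted p = 0.0148). That call was lost without DMSO replicate 3, Dex replicate 2 or DexKLA replicate 1, and after thinning to the smallest library (−0.48, adjusted p = 0.709). PTPN11, a phosphatase that helps rather than blocks RAS activation, was lower with KLA (−0.5 ± 0.13, adjusted p = 0.016), a call lost without DMSO replicate 1 or KLA replicate 3 and with depth class as a covariate (−0.46, adjusted p = 0.24).

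All 11 receptors upstream of ERK were tested, and every call among them was downward. KLB, the β-Klotho co-receptor for FGF19 and FGF21, was 194 ± 27.5 CPM with DMSO and 118 ± 10.3, 120 ± 13.7 and 119 ± 12.5 CPM with Dex, KLA and DexKLA. In cells without KLA it fell by 0.71 on the log2 scale with Dex (SE 0.12, adjusted p = 0.00336), which held without each library. It fell by 0.69 with KLA (SE 0.12, adjusted p = 0.00814), which was lost without DMSO replicate 1 and with the depth covariate (−0.69, adjusted p = 0.154). The mean Dex effect on KLB was less stable. Its call was kept in 4 of 12 fits that left out 1 library (−0.42 to −0.32) and lost after thinning (−0.39, adjusted p = 0.105). None of the 11 receptors was called for Dex in KLA-treated cells. FGFR1 had a mean Dex effect of −0.43 ± 0.1 (adjusted p = 0.0235), a call kept in 3 of 12 fits that left out 1 library and lost after thinning (−0.31, adjusted p = 0.536). With KLA, EGFR (−0.68 ± 0.19, adjusted p = 0.0237) and MET, the HGF receptor (−0.48 ± 0.12, adjusted p = 0.0158), were also lower, and both calls were lost without DMSO replicate 1, DMSO replicate 3 or KLA replicate 3, and EGFR also without DMSO replicate 2. With the depth covariate EGFR was −0.31 (adjusted p = 0.574) and MET −0.42 (0.262). With the length trend removed they were −0.45 (0.0714) and −0.29 (0.0622), and after thinning −0.6 (0.244) and −0.37 (0.206). KLA versus DMSO thus called 3 of the 11, where 13.7% of all genes were called. The median change of the 11 with KLA was −0.33, beside −0.018 over all genes. Across genes, longer transcripts had lower changes in this comparison (rho −0.467), and the KLA libraries were deeper. The part of length and depth in that median was not tested.

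Of 20 genes of the ERK cascade itself 19 were tested. None passed for the mean Dex effect in edgeR or DESeq2, with 1 at an unadjusted p under 0.05, and their median change was 0.01. With KLA, SOS1, the exchange factor that loads RAS, was lower (−0.42 ± 0.12, adjusted p = 0.0239), a call lost without DMSO replicate 1, 2 or 3 or KLA replicate 3, with the length trend removed (−0.21, adjusted p = 0.207) and with the depth covariate (−0.34, 0.33). Of 16 genes of the p38 and JNK cascade 14 were tested, and none passed in edgeR in any comparison. For the mean Dex effect 1 of the 14 had an unadjusted p under 0.05, and DESeq2 called 1 of them in 1 comparison, DexKLA versus DMSO.

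Of 22 other genes that ERK is known to switch on, 16 were tested, and the median of their mean Dex effects was −0.08, beside −0.002 over all genes. The mean Dex effect called 0 higher and 2 lower: PHLDA1 (−0.28 ± 0.07, adjusted p = 0.0323) and the transcription factor ETS2 (−0.34 ± 0.09, adjusted p = 0.0493), each kept in 2 of 12 fits without 1 library. After thinning they were −0.3 (adjusted p = 0.329) and −0.11 (0.878). IER3, an early-response survival gene, was 81.2 ± 4.81, 98.7 ± 5.81, 156 ± 27.7 and 101 ± 14.5 CPM in the DMSO, Dex, KLA and DexKLA groups. It rose with KLA by 0.94 ± 0.13 (adjusted p = 0.0011), which held without each library and with the depth covariate (1.1, adjusted p = 0.0339). It was lower with Dex in KLA-treated cells (−0.63 ± 0.12, adjusted p = 0.0131), a call lost without KLA replicate 1 or DexKLA replicate 3 and within the deeper libraries alone (−0.71, adjusted p = 0.315). CCND1, which encodes cyclin D1, was lower with KLA (−0.33 ± 0.11, adjusted p = 0.0461), a call kept in 2 of 12 such fits and lost with the depth covariate (−0.5, adjusted p = 0.169). As a check on the hormone, 12 of 15 known glucocorticoid receptor targets were tested and the mean Dex effect called 5 higher and 2 lower, beside 1.51% of all genes called. FKBP5, an immunophilin of the receptor complex, rose by 0.8 ± 0.12 (adjusted p = 0.000261), and KLF9, MT2A, CEBPD and ERRFI1 were the other 4 called higher. The 2 called lower were SGK1, a kinase (−0.48 ± 0.09, adjusted p = 0.00547), and PCK1, a gluconeogenic enzyme (−0.56 ± 0.14, adjusted p = 0.0345), both known as genes that glucocorticoids induce. The PCK1 call was kept in 5 of 12 fits without 1 library. After thinning SGK1 was −0.43 (adjusted p = 0.259) and PCK1 −0.57 (0.237). In the same fit KLF9 was 0.61 (0.104) and CEBPD 0.56 (0.1), so calls in both directions were lost. FKBP5, MT2A and ERRFI1 kept their calls after thinning.

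**Figure D4:**
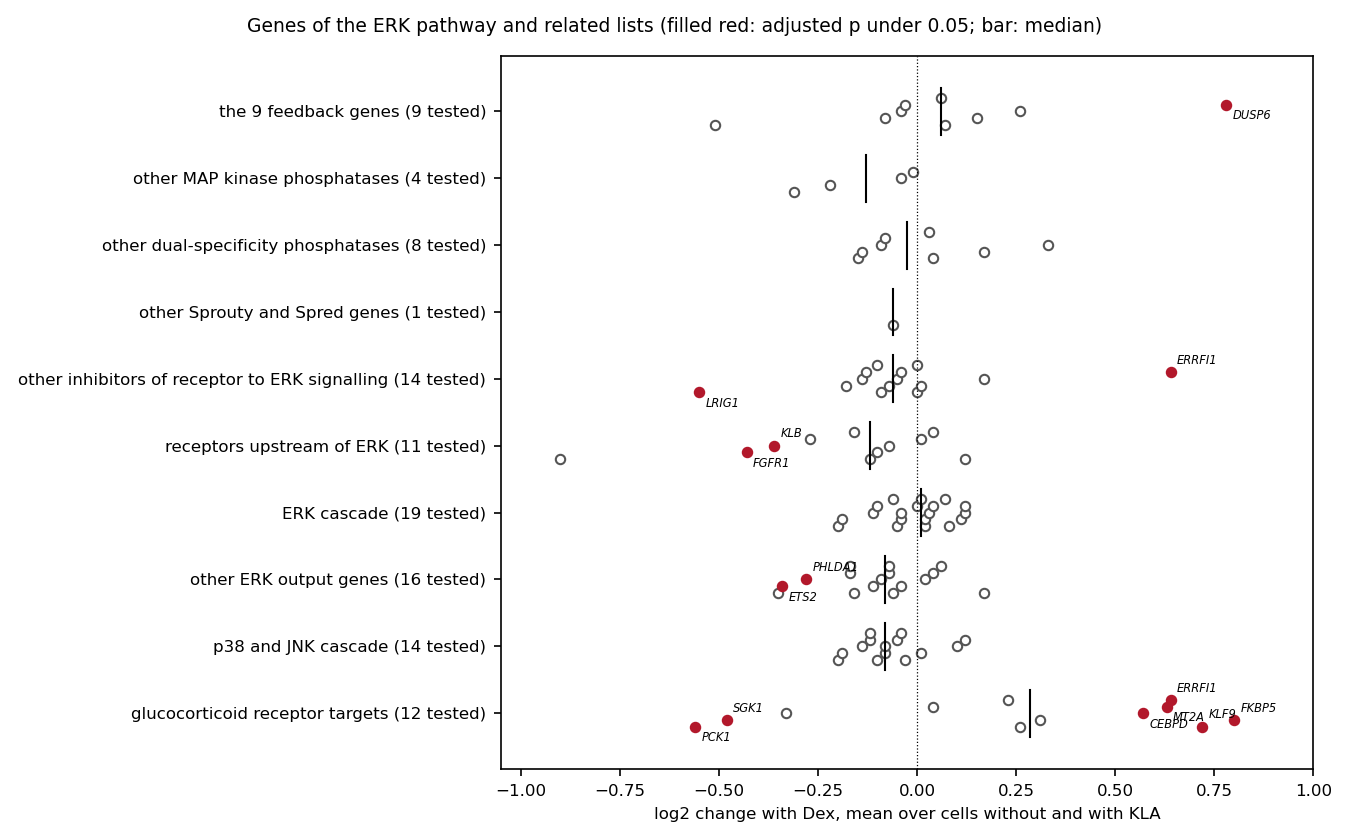
Mean log2 change with Dex over cells without and with KLA (horizontal axis) for the tested genes of each list (rows), with 1 point per gene and a bar at the list median. Filled red points passed the edgeR test: DUSP6 at 0.78 is the farthest right of the 9, ERRFI1 and LRIG1 lie on opposite sides, and the ERK cascade has no filled point.

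The 5 genes whose log2 CPM followed DUSP6 most closely over the 12 libraries, among 12386 genes, were PLA2G12B (Pearson r 0.966, Spearman rho 0.944), AFP (0.963, 0.965), SLC26A3 (0.952, 0.937), ATF6 (0.941, 0.937) and SLC25A12 (0.94, 0.951). These values describe libraries that share treatment and depth, and the genes were picked for them. AFP, the fetal serum protein α-fetoprotein and a hepatoma marker, averaged 15300 ± 1380, 33500 ± 1750, 21800 ± 777 and 36000 ± 7920 CPM in the DMSO, Dex, KLA and DexKLA groups, and is 1 of the 8 markers summed above. SLC26A3, a chloride and bicarbonate exchanger, averaged 10.3 ± 2.39, 30.8 ± 1.95, 19.6 ± 2.55 and 34.4 ± 9.32 CPM in the same order. PLA2G12B, a secreted phospholipase-like protein of the liver, averaged 43.6 ± 0.675, 64.1 ± 1.1, 55.4 ± 6.27 and 67.1 ± 4.28 CPM. ATF6, a sensor of unfolded proteins in the endoplasmic reticulum, averaged 81.9 ± 12.5, 114 ± 7.72, 98.7 ± 8.65 and 119 ± 15.2 CPM. SLC25A12, a mitochondrial aspartate and glutamate carrier, averaged 17.3 ± 1.45, 25.1 ± 1.07, 21.7 ± 3.3 and 26.9 ± 2.51 CPM. All 5 had DUSP6's order of group means: DMSO, KLA, Dex, DexKLA from lowest to highest.

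**Figure D5:**
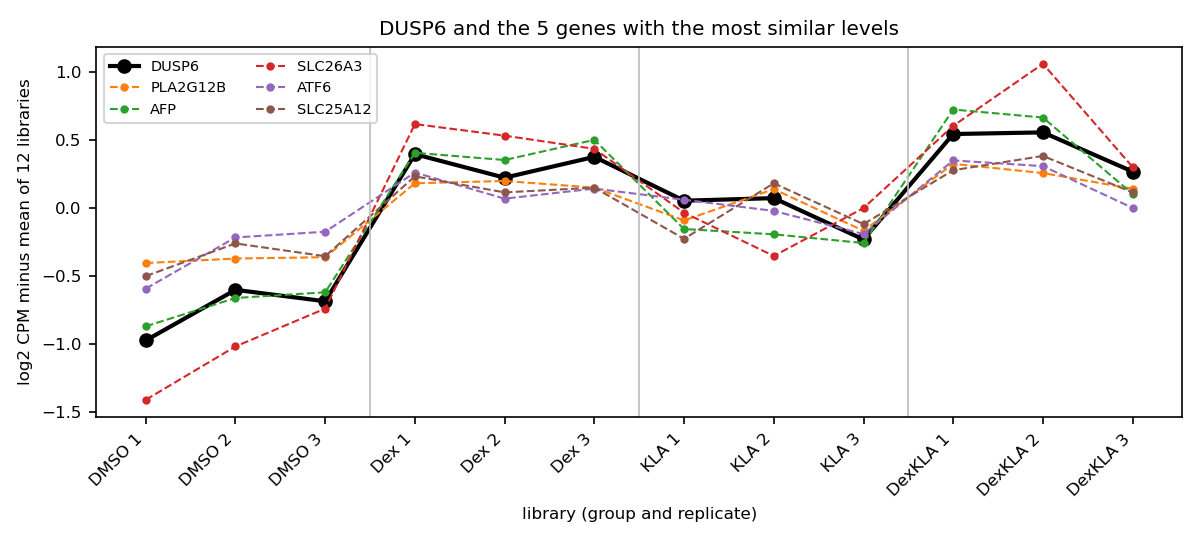
Log2 CPM minus each gene's mean over the 12 libraries (vertical axis) for DUSP6 (black) and the 5 genes most like it, by library (horizontal axis). Every line has its lowest value in a DMSO library, and SLC26A3 spans a wider range than DUSP6.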

How the data were processed

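Per the submitters' processing notes, the tools were BWA 0.7.17, HOMER 4.10 and Trimmomatic with the hg38 build; no roles are given. The values for 70507 transcripts, deposited by the authors in steps of 0.5, were read here as estimated counts, and the notes do not say which tool counted them. They were rounded to whole numbers. The 406 transcripts with no symbol (1.71% to 2.55% of a library's total) were left out, and the transcript with the highest total was kept per symbol. Genes were filtered with filterByExpr (minimum count 10), scaled with TMM and fitted over all 12 libraries with edgeR 4.0.16 (R 4.3.3), by the quasi-likelihood test. P-values were adjusted by Benjamini-Hochberg over 13166 genes, with a threshold of 0.05. Every adjusted p comes from that fit unless DESeq2 1.42.0 is named. A standard error is the log2 change divided by the square root of F. CPM used TMM-scaled totals. Named genes were all 9 members, up to 4 called genes per list and comparison, and the 5 genes most like DUSP6 among those averaging 1 or more in log2 CPM. The members and lists were chosen with earlier results of these data known. DUSP9, DUSP2, SPRY1, all 7 called glucocorticoid targets and the single markers of other cell types were named after their values were seen. Same-numbered replicates were not paired in the labels, so no block was used. Promoter sequences are from RefSeq (GRCh38.p14) and exons from GENCODE v29.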

Additional observations from a re-analysis of the deposited data

How the results depend on the processing

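For the 9 genes, 1375 of 1392 values recomputed under other settings kept their side of the threshold, 7 lost a call and 10 gained one. Among values called in either fit 0 reversed direction. Values called in neither fit changed sign in some settings. For example, DUSP1 in Dex versus DMSO ran from −0.36 to 0.04 over the settings that kept all libraries or used 1 depth class. The number of the 9 called in DexKLA versus KLA rose from 0 to 1 (DUSP6) with library size alone as the scaling (adjusted p = 0.0354), with DESeq2 (0.013), with no filter (0.00618), after thinning to the smallest library (0.0401) and with the length trend removed (0.0356). It stayed at 0 under the other settings that left out no single library. Among these DUSP6 was 0.44 (adjusted p = 0.179) with depth class as a covariate and 0.48 (0.245) with the KLA and DexKLA libraries fitted alone. Within the deeper libraries alone DUSP6 was 0.43. The number called ranged from 0 to 1 with 1 library left out. In KLA versus DMSO it fell from 2 to 1 after thinning and to 0 with depth class as a covariate, and ranged from 0 to 2 with 1 library left out. The interaction rose from 0 to 1 with DESeq2 and with no filter (adjusted p = 0.0148), and ranged from 0 to 1 with 1 library left out. The cause was not tested. The member counts of the other 4 comparisons were the same under every setting run. The replicate number did not pair the libraries: over 18 same-numbered pairs the correlation of deviations ran from −0.31 to 0.172, with 1 above 0.1. With a replicate block the members called stayed at 1 for Dex versus DMSO and 0 for DexKLA versus KLA, and DUSP6 was 1.08 (adjusted p = 9.01e-05) and 0.49 (0.0854). Counts over all genes moved more. The 270 genes of Dex versus DMSO became 134 with the block, 656 with DESeq2 and 54 to 1348 over all other settings, and 56 to 915 with 1 library left out. The 86 of DexKLA versus KLA became 16 to 204 and 52 to 94, the 199 of the mean Dex effect 78 to 312 and 139 to 317, the 1806 of KLA versus DMSO 4 to 2253 and 5 to 2363, and the 556 of DexKLA versus DMSO 63 to 987 and 48 to 1461. The 0 of DexKLA versus Dex (935 at an unadjusted p under 0.05 in edgeR, 0 in DESeq2) became 0 to 12 and 0, and the 5 of the interaction 0 to 1040 and 0 to 681. Library size alone moved the median change of all genes in Dex versus DMSO from −0.011 to −0.11. No comparison of KLA with DMSO could be made within 1 depth class. Depth limited DUSP4 and DUSP10 most, with 2 and 4 counts in their lowest libraries.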
